A study of Homo sapiens with 6 samples.

Results

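Apolipoproteins of high-density lipoprotein (HDL) and the enzymes that remodel it were followed in liver cancer cells after siRNA against the kinase UHMK1. The genes, taken from a list by name, were APOA1, APOA2, APOA4, APOA5, APOC1, APOE, APOH, APOM, LCAT and LIPC. Of these 10, 9 were measured, out of 33616 named genes on the arrays. Only probe sets that the array's gene table gives to exactly 1 symbol were used, and per gene the one with the highest mean over the 6 arrays. All 9 measured members had 1 such probe set, and none was given for LIPC, the hepatic lipase gene, which was therefore not analysed here.

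The cells were HepG2, a human liver cancer line that secretes lipoproteins and other plasma proteins. One group of 3 arrays came from cells given a scrambled siRNA, and the other group of 3 arrays from cells given an siRNA against UHMK1, a protein kinase that acts on splicing factors. Both groups received 30 nM siRNA with a lipid transfection reagent, grew in the same serum-containing medium and were harvested after 24 h. No label tells separate cultures from repeats of 1 culture, so the spread behind each p-value may be technical.

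HDL forms when APOA1, secreted mostly by liver and gut, takes up cholesterol and phospholipid from cells through the transporter ABCA1. LCAT then esterifies the cholesterol, so that the particle fills with a core of cholesteryl ester. Lipases, lipid transfer proteins and exchangeable apolipoproteins such as APOE and APOC1 later reshape the particle and direct its lipid to receptors, and hepatocytes make most of these proteins.

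Values are log2 expression as the authors deposited them, with 2 decimals. In such bulk RNA, fewer cells of a kind and less RNA per cell cannot be told apart. UHMK1 siRNA was compared with scrambled siRNA with limma across all genes, and a gene was called where its Benjamini-Hochberg adjusted p was under 0.05. UHMK1 itself was checked and fell by 3.43 in log2 units (adjusted p = 0.000112). The highest value on an array was 19.93, shared by 12 or 13 probe sets, except on UHMK1 siRNA array 2. Medians over all probe sets ran from 4.40 to 4.43, and 4.55 on UHMK1 siRNA array 2, where the maximum was 19.36, shared by 40 probe sets. No label tells whether that array was processed differently. It also had the lowest mean correlation with its own group (0.990, against 0.992 to 0.994 for the others, across genes). Scrambled siRNA means of the defining hepatocyte markers were 18.79 for ALB, 18.71 for AFP, 18.67 for SERPINA1 and 14.99 for TTR, and HNF4A was not measured. Log2 differences of the 10 measured hepatocyte markers, UHMK1 siRNA minus scrambled siRNA, ran from -0.65 to 0.35, with 5 above and 5 below 0. PTPRC of immune cells and PECAM1 and CDH5 of endothelial cells averaged 4.97, 3.83 and 3.90, but CD68, a macrophage marker that other cells also express, stood at 11.77. The fibroblast collagens COL1A1 and COL1A2 stood at 10.06 and 6.46, and ACTA2 at 11.51. The biliary keratins KRT19 and KRT7 stood at 14.66 and 6.07, and the intestinal markers VIL1 and FABP2 at 12.16 and 6.52. The summed level of 4 immune markers, most of it CD68, was 11.73 to 11.92 in the scrambled siRNA group and 11.44 to 11.58 in the UHMK1 siRNA group, its part in the members' values was not tested, and 0 of the 33 markers measured for 6 cell types were called.

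None of the 9 measured members was called after UHMK1 siRNA. In this comparison 3.39% of all genes tested were called, 0.726% as higher and 2.67% as lower, so a count of 0 among 9 lies near that background. Of genes with a mean log2 level from 7 to under 11, where APOA4, APOA5, APOM and LCAT lie, 8.05% were called. At an unadjusted p under 0.05 there was 1 member, LCAT, against 15.3% of all genes, and the arrays of 1 member, again LCAT, did not overlap between groups, against 21.0% of all genes. The differences ran from -0.39 for APOA4 to 0.61 for LCAT on the log2 scale, with 4 above and 5 below 0. Their median was -0.01, beside -0.02 over all genes tested. The 95% interval of every one of the 9 differences lay within a 2-fold change in either direction, which also held for 88.5% of all genes. For 5 members, APOA1, APOA2, APOC1, APOE and APOH, it lay within 1.5-fold, as for 44.5% of all genes. These bounds hold on the deposited scale. Without UHMK1 siRNA array 2, or without scrambled siRNA array 2, 7 of the 9 intervals lay within 2-fold. The number was 8 of 9 after cyclic loess normalization, and without scrambled siRNA array 3 or UHMK1 siRNA array 1 or 3.

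**Figure D1:**
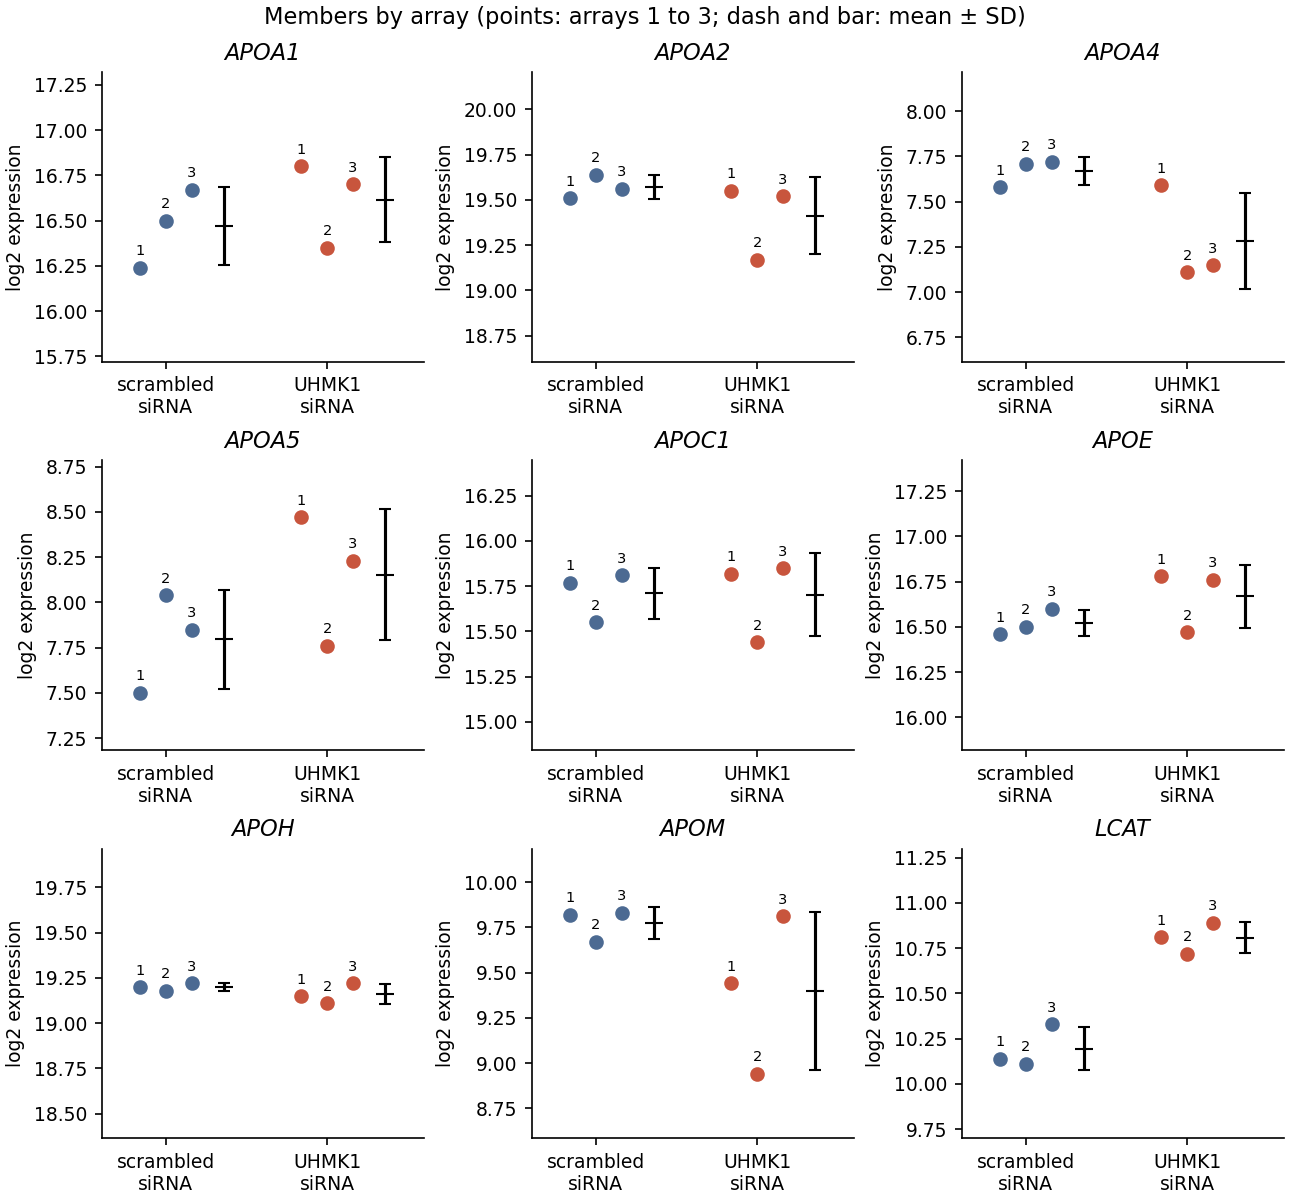
Log2 expression of the 9 measured members on each array (numbered points), with the mean and SD of 3 arrays beside them; every panel spans 1.6 log2 units. LCAT alone has groups that do not overlap, and UHMK1 siRNA array 2 lies below the mean of the other UHMK1 siRNA arrays in all panels.

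APOA1 is the main structural protein of HDL and the cofactor of LCAT. Its log2 level was 16.24, 16.50 and 16.67 in the scrambled siRNA group, against 16.80, 16.35 and 16.70 in the UHMK1 siRNA group. The groups overlapped, since UHMK1 siRNA array 2 lay below the higher scrambled siRNA arrays. The difference was 0.15 (SE 0.18, 95% interval -0.26 to 0.56), with an adjusted p of 0.786 in limma. It ranged from 0.03 to 0.28 with any 1 array left out.

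APOA2, another major HDL protein, stood near the top of the scale at 19.51, 19.64 and 19.56 in the scrambled siRNA group, against 19.55, 19.17 and 19.52 in the UHMK1 siRNA group. Only UHMK1 siRNA array 2 was low, and the other UHMK1 siRNA arrays lay among the scrambled siRNA arrays. The difference of -0.16 (SE 0.16, 95% interval -0.52 to 0.20, adjusted p = 0.725) became -0.04 without that array. On the arrays that reached 19.93, APOA2 lay 0.29 to 0.42 below the maximum, and it lay 0.19 below the lower maximum of UHMK1 siRNA array 2. Between 12 and 16 genes per array were brighter. With every array limited to 19.36, all arrays but that one read the limit and the difference was -0.06. Little room was therefore left for a higher reading.

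APOH, or beta-2-glycoprotein I, binds phospholipids and circulates partly on lipoproteins. It had the smallest residual SD of the members, 0.042, and stood at 19.20, 19.18 and 19.22 in the scrambled siRNA group, against 19.15, 19.11 and 19.22 in the UHMK1 siRNA group. The groups overlapped and all values lay within 0.25 to 0.78 of the array maximum. The difference was -0.04 (SE 0.14, 95% interval -0.35 to 0.27, adjusted p = 0.932), and cyclic loess normalization turned it to 0.051. Of the 64 genes with a mean log2 level of 18 or more, 4 were called, or 6.25%, and all 4 were lower. The largest difference among those genes was 0.81 in size.

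**Figure D2:**
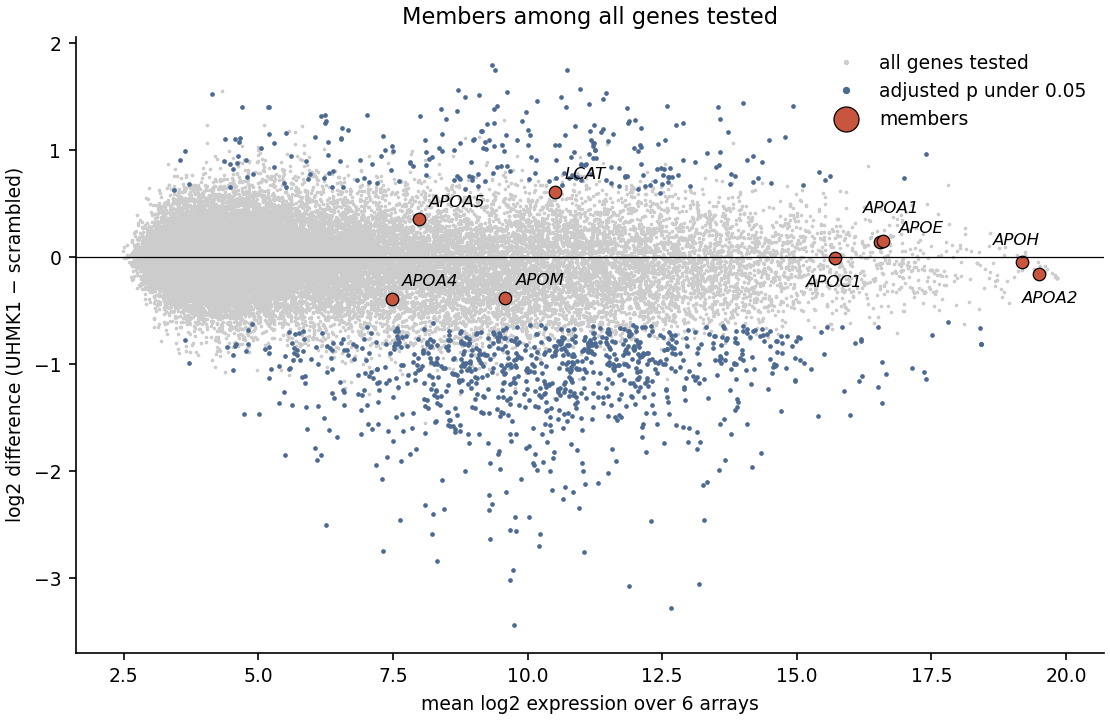
Log2 difference (UHMK1 siRNA minus scrambled siRNA) against mean log2 level over 6 arrays for 33616 genes, with called genes in blue and the 9 members in red. APOH and APOA2 sit at the right end of the scale, with means of 19.18 and 19.49, and no member lies among the called genes.

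APOE and APOC1 are exchangeable apolipoproteins whose genes lie side by side on chromosome 19. APOE, the ligand by which remnants and some HDL bind the LDL receptor family, stood at 16.46, 16.50 and 16.60 in the scrambled siRNA group, against 16.78, 16.47 and 16.76 in the UHMK1 siRNA group. UHMK1 siRNA arrays 1 and 3 exceeded every scrambled siRNA array and array 2 did not. The difference was 0.15 (SE 0.15, 95% interval -0.19 to 0.49, adjusted p = 0.726), and 0.25 without UHMK1 siRNA array 2. APOC1, known for inhibiting the cholesteryl ester transfer protein, stood at 15.77, 15.55 and 15.81 in the scrambled siRNA group, against 15.82, 15.44 and 15.85 in the UHMK1 siRNA group. The ranges of both groups coincided almost fully. Its difference was -0.01 (SE 0.17, 95% interval -0.39 to 0.38, adjusted p = 0.992), and the sign turned with the scaling, to 0.11 after cyclic loess normalization. Among the 598 genes with a mean log2 level of 15 or more, where 5 members lie, 6.19% were called.

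APOM carries sphingosine-1-phosphate on HDL. It stood at 9.82, 9.67 and 9.83 in the scrambled siRNA group, against 9.44, 8.94 and 9.81 in the UHMK1 siRNA group. The UHMK1 siRNA arrays spread widely, with array 3 at the scrambled siRNA level and array 2 lowest. The difference of -0.38 (SE 0.22, 95% interval -0.87 to 0.11) had an adjusted p of 0.479 in limma, and without UHMK1 siRNA array 2 it was -0.15 (adjusted p = 0.761). Without UHMK1 siRNA array 3 it was -0.58 (adjusted p = 0.233). These were the ends of its range with any 1 array left out.

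LCAT, the enzyme that esterifies cholesterol on HDL, was the member closest to a call. Its level was 10.14, 10.11 and 10.33 in the scrambled siRNA group, against 10.81, 10.72 and 10.89 in the UHMK1 siRNA group. Every UHMK1 siRNA array stood above every scrambled siRNA array, as was the case in the upward direction for 7.74% of all genes. The means were 10.19 ± 0.12 and 10.81 ± 0.09 (SD, n = 3), a difference of 0.61 (SE 0.15, 95% interval 0.28 to 0.94) or 1.53-fold, with limma's adjusted p = 0.0592. By p it ranked 1268 among the 33616 genes, where 1141 passed. The two-sided exact permutation test over arrays gave p = 0.10, the smallest that 3 against 3 arrays allow.

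The LCAT call turned on the setting, and LCAT was called in 5 of the 16. The adjusted p was 0.0378 after quantile normalization, 0.0255 after cyclic loess normalization, 0.0267 with a variance trend and robust eBayes, and 0.0265 or 0.0068 where only genes with a mean log2 level above 5 or above 8 were tested. It was 0.281 in the fit over all probe sets, 0.115 after median centring, 0.113 with the replicate block, and 0.0592 or 0.0596 with the cap or the mean of a gene's probe sets. It was 0.0712 to 0.211 with any 1 array left out, at differences from 0.57 to 0.68. The sizes over all settings lay between 0.57 and 0.74. Calls were more frequent among all genes under the filters. Of 17983 genes above a mean log2 level of 5, 1724 were called, and of 8865 above 8, 2202. The cap and the probe-set, filter, variance and block settings left the LCAT difference unchanged. Leaving out 1 array could not turn its sign, since the groups did not overlap. The same direction in those settings was therefore fixed in advance, and only the normalizations could have changed it.

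**Figure D3:**
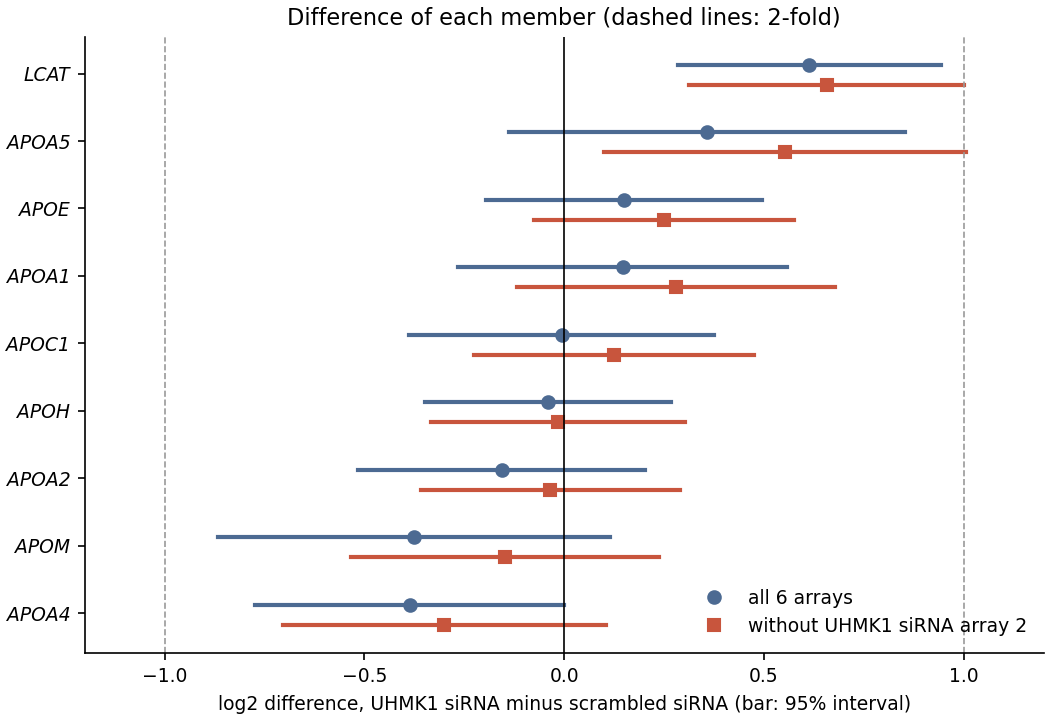
Log2 difference of each member with its 95% interval, from all 6 arrays (blue circles) and without UHMK1 siRNA array 2 (red squares); dashed lines mark 2-fold. All 9 blue intervals lie inside the dashed lines, and among the blue intervals that of LCAT, 0.28 to 0.94, alone excludes 0. Without UHMK1 siRNA array 2 the APOA5 interval, 0.10 to 1.01, also excludes 0.

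UHMK1 siRNA array 2 was low for the members as a set. All 9 members stood below the mean of UHMK1 siRNA arrays 1 and 3 on it, by 0.08 for APOH up to 0.69 for APOM, with a median of -0.37. For comparison, the median was -0.19 among the 8870 genes averaging 8 or more, 6571 of which lay below 0. APOA4 and APOA5 averaged less, at 7.48 and 7.98. Over all 33616 genes the median was -0.05, and 18535 lay below 0. The median difference of the members was 0.13 without that array. No member was called with any 1 array left out.

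APOA4 and APOA5 lie beside APOC3 and APOA1 in a cluster on chromosome 11. APOA4, which in humans is made chiefly by the gut, stood at 7.58, 7.71 and 7.72 in the scrambled siRNA group, against 7.59, 7.11 and 7.15 in the UHMK1 siRNA group. UHMK1 siRNA array 1 lay inside the scrambled siRNA range, while arrays 2 and 3 lay below it. The difference was -0.39 (SE 0.17, 95% interval -0.77 to 0.00067, adjusted p = 0.329). With any 1 array left out it ranged from -0.54 to -0.30. The summed level of 5 intestinal markers, most of it VIL1, was 12.17 to 12.23 in log2 units in the scrambled siRNA group and 12.37 to 12.58 in the UHMK1 siRNA group, and its part in the APOA4 values was not tested. The single markers did not move together: VIL1 differed by 0.26 and LGALS4 by 0.42, but FABP2 by -0.43, SI by -0.34 and CDX2 by -0.03, and none was called. APOA5, a liver protein that enhances lipolysis by lipoprotein lipase, stood at 7.50, 8.04 and 7.85 in the scrambled siRNA group, against 8.47, 7.76 and 8.23 in the UHMK1 siRNA group. UHMK1 siRNA arrays 1 and 3 were the highest and array 2 lay between the scrambled siRNA arrays. The difference was 0.36 (SE 0.22, 95% interval -0.14 to 0.85, adjusted p = 0.512). Without UHMK1 siRNA array 2 it was 0.55, with an interval of 0.10 to 1.01 and an adjusted p of 0.227 in limma. That was the highest with any 1 array left out. The lowest was 0.20, without UHMK1 siRNA array 1 (adjusted p = 0.754).

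The 250 bases before the start of each of these genes are shown because APOA4 and APOA5 differed in sign, though neither was called. A further reason is that CREB3L3, which rose, is a factor that mice need for full expression of both. Its part in the APOA4 and APOA5 values was not tested. The sequences come from RefSeq on GRCh38.p14, minus strand. They lie at chr11:116792421-116792670 for the more upstream of the APOA5 starts and chr11:116823305-116823554 for APOA4. Capitals mark the letters CCACG (part of sites bound by CREB3L3 and other bZIP or bHLH factors), AGGTCA (a nuclear receptor half-site), GTTAAT (an HNF1 half-site) and AAAGTCCA (part of an HNF4A site), on either strand.
APOA5: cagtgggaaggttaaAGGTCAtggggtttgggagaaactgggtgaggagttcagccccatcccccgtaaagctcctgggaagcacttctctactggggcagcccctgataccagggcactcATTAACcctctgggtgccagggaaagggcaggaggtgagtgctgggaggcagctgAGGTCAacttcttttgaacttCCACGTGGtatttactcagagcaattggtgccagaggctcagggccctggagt
APOA4: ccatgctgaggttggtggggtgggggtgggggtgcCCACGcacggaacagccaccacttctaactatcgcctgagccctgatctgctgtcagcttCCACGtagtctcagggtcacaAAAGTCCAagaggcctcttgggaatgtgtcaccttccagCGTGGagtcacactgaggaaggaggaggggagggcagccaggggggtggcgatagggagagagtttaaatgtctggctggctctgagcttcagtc
The APOA5 window held CCACG on both strands in 1 overlapping run, AGGTCA at 2 places and GTTAAT at 1. The APOA4 window held CCACG at 3 places and AAAGTCCA at 1. Among 35116 windows of the same length, 33.5% held CCACG, 12.1% AGGTCA, 6.23% GTTAAT and 0.98% AAAGTCCA. Of the 10 genes, 8 had a window. The other APOA5 window also held CCACG and AGGTCA, APOC1 held CCACG, LIPC held AGGTCA and GTTAAT, APOH held GTTAAT at 2 places, and the windows of APOA2, APOE and APOM held none of the 4 strings. These are matches of letters, for strings chosen after the promoters were read, and not shown to be sites.

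The gap between genes of a cluster was then taken within each array, a measure added after the data were seen. APOA5 minus APOA4 was -0.08, 0.33 and 0.13 in the scrambled siRNA group, against 0.88, 0.65 and 1.08 in the UHMK1 siRNA group. The gap was larger on every UHMK1 siRNA array, by 0.74 on average (exact permutation p = 0.10, the smallest possible). APOC3, which inhibits lipoprotein lipase, stood at 13.68, 13.95 and 14.13 in the scrambled siRNA group, against 14.53, 14.33 and 14.78 in the UHMK1 siRNA group, groups that did not overlap. Its own difference was 0.63 (SE 0.18, adjusted p = 0.118 in limma), and it passed after cyclic loess normalization, with a variance trend and among genes above a mean log2 level of 8. APOC3 minus APOA1 was -2.56, -2.55 and -2.54 in the scrambled siRNA group, against -2.27, -2.02 and -1.92 in the UHMK1 siRNA group. That gap moved by 0.48 (exact permutation p = 0.10), and neither gene alone was called.

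Over the 6 pairs of the chromosome 11 cluster, 4 gaps did not overlap between groups. They were APOA4 against APOA5, APOC3 and APOA1, and APOC3 against APOA1. Over the 6 pairs of APOE, APOC1, APOC4 and APOC2 on chromosome 19, 0 did so. Among 47109 gaps between protein-coding genes 1 to 3 places apart, 29.7% did not overlap. With 3 against 3 arrays no gap can pass, since the smallest exact permutation p is 0.10, or 0.30 here after adjustment over the 12 pairs. The pairs of a cluster share genes and are not separate observations, and an unequal change does not show which gene moved.

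**Figure D4:**
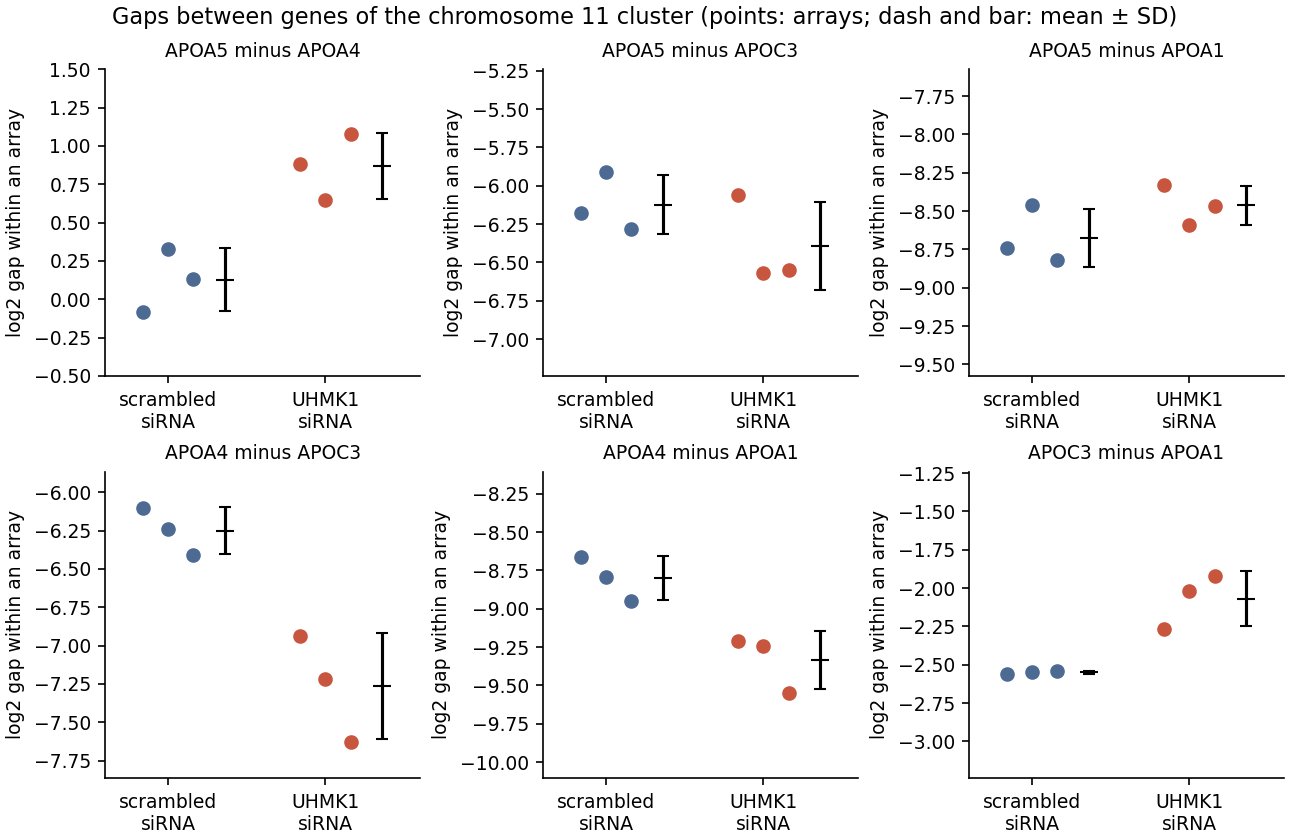
Gap in log2 expression between 2 genes of the chromosome 11 cluster within an array, for the 6 pairs, with points for arrays and a dash and bar for mean and SD of 3 arrays; every panel spans 2 log2 units. The groups separate in 4 panels. Their means differ by 0.74 for APOA5 minus APOA4 and by -1.01 for APOA4 minus APOC3. For APOA4 minus APOA1 the means differ by -0.53, and for APOC3 minus APOA1 by 0.48.

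CADM1 and TOMM40, which lie within 5 protein-coding genes of a clustered member, were lower after UHMK1 siRNA. Places were counted in gene order, and distances in bases were not measured. Of 20 measured protein-coding genes between or within 5 places of the clustered members, 0 rose and 2 fell, against 2.67% of all genes that fell. Falls were more frequent at the levels of these 2 genes than over all genes. Of 4866 genes with a mean log2 level from 8 to under 11, where TOMM40 lies, 385 fell. Of 3406 genes from 11 to under 15, where CADM1 lies, 328 fell. CADM1, a cell adhesion molecule 3 places from APOA5, stood at 13.96, 14.08 and 14.11 in the scrambled siRNA group, against 12.26, 12.30 and 12.21 in the UHMK1 siRNA group. The fall was significant, at -1.79 (SE 0.14, limma's adjusted p = 0.000483), and CADM1 was called in each of the 16 settings. TOMM40, the channel of the mitochondrial outer membrane and the direct neighbour of APOE, stood at 11.37, 11.34 and 11.45 in the scrambled siRNA group, against 10.40, 9.79 and 10.52 in the UHMK1 siRNA group. The groups lay apart, and TOMM40 fell by 1.15 (SE 0.20, adjusted p = 0.0174). Leaving out any scrambled siRNA array ended the call, at changes of -1.17 to -1.12, as did the fit over all probe sets. APOC4 and APOC2, which follow APOC1, stood at -0.01 and -0.05 (adjusted p = 0.988 and 0.914). APOC2 is the activator of lipoprotein lipase.

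**Figure D5:**
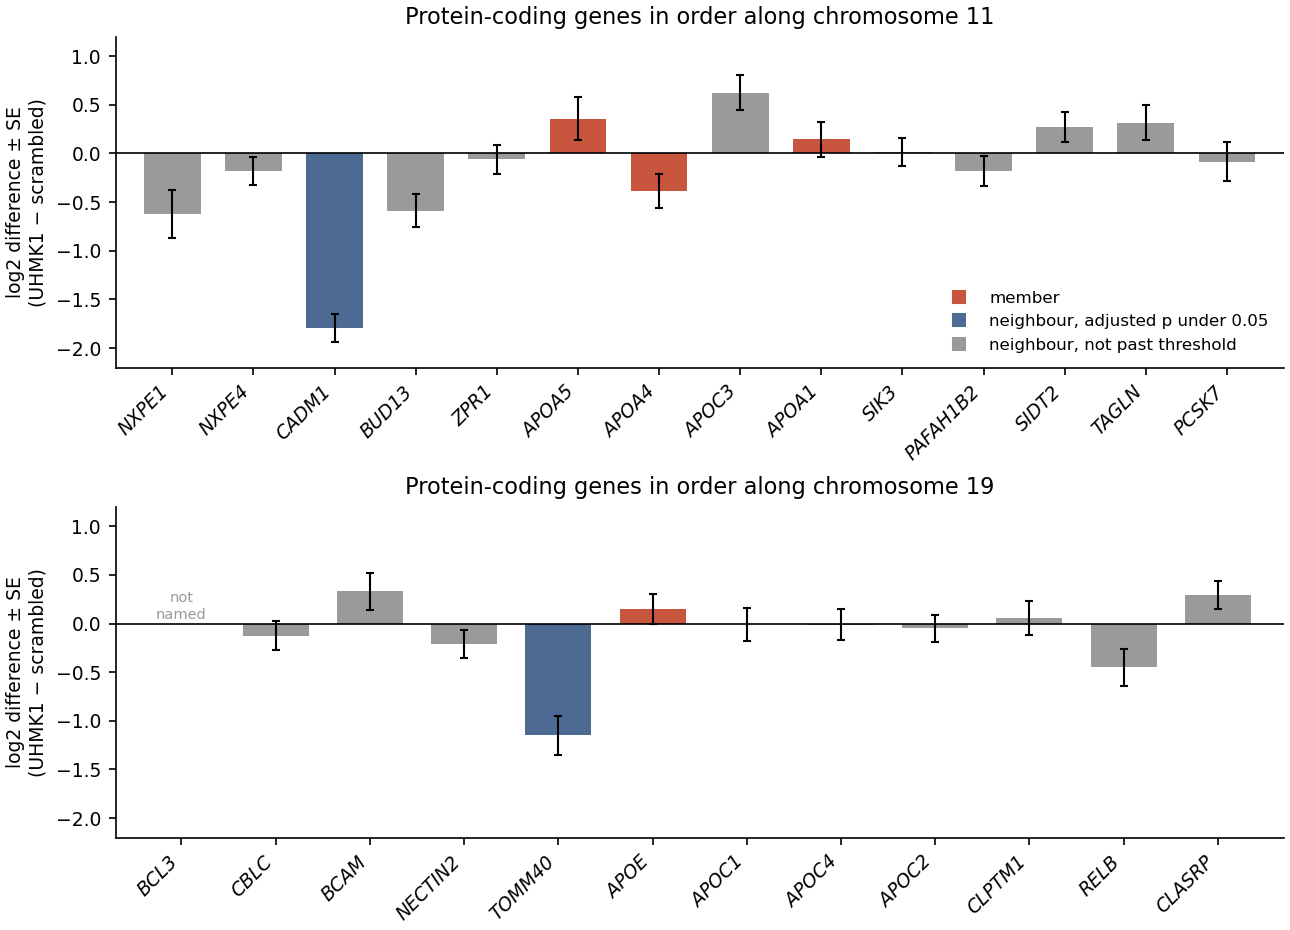
Log2 difference with its SE (UHMK1 siRNA minus scrambled siRNA) for protein-coding genes in their order along chromosomes 11 and 19, members in red and called neighbours in blue. CADM1 (-1.79) and TOMM40 (-1.15) are the called genes, and the members in red run from -0.39 to 0.36.

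Other genes of HDL and lipoprotein metabolism were taken from a list of 73, of which 59 were measured. Of these 2 rose and 3 fell, against 0.726% and 2.67% of all genes, with a median difference of 0.03. Calls were more frequent at the levels of these called genes. Of genes with a mean log2 level from 7 to under 11, where CREB3L3, CEBPA and FOXO1 lie, 8.05% were called. Of 3406 genes from 11 to under 15, where MTTP and NR0B2 lie, 85 rose and 328 fell. None of the 17 other apolipoprotein and paraoxonase genes and none of the 4 receptor genes was called. Of the 19 genes of lipid transfer, efflux and lipolysis 1 rose, and of the 19 transcription regulators 1 rose and 3 fell.

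MTTP, the transfer protein that loads lipid onto APOB, stood at 12.76, 12.86 and 12.87 in the scrambled siRNA group, against 14.37, 14.24 and 14.10 in the UHMK1 siRNA group. The groups lay far apart. MTTP rose by 1.41 (SE 0.15, 95% interval 1.08 to 1.74, adjusted p = 0.00175), or 2.65-fold, and was called in each of the 16 settings. APOB itself, the protein of VLDL and LDL, stood at 19.08 ± 0.05 and 19.11 ± 0.05 (SD, n = 3), close to the top of the scale, with an adjusted p of 0.958.

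CREB3L3, a membrane-bound transcription factor of the liver, stood at 7.77, 7.72 and 8.51 in the scrambled siRNA group, against 9.29, 9.15 and 9.65 in the UHMK1 siRNA group. All UHMK1 siRNA arrays were higher. CREB3L3 rose by 1.36 (SE 0.24, adjusted p = 0.0167), or 2.57-fold, and the call did not hold with scrambled siRNA array 1 or 2, or UHMK1 siRNA array 1 or 3, left out (1.22 to 1.40). FOXO1, a factor that insulin signalling restrains, stood at 8.49, 8.40 and 8.40 in the scrambled siRNA group, against 7.71, 7.18 and 7.59 in the UHMK1 siRNA group. It fell by 0.94 (SE 0.17, adjusted p = 0.0210), and the call was lost without any scrambled siRNA array or without UHMK1 siRNA array 3, at -0.99 to -0.91. A dimmer FOXO1 probe set, with a mean of 4.85, showed a difference of 0.02, and the mean of both gave -0.46 with no call.

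The other called regulators were the repressor NR0B2 (-1.27, adjusted p = 0.0120) and the hepatocyte factor CEBPA (-0.91, adjusted p = 0.0169). NR0B2 did not pass with scrambled siRNA array 2 or 3 left out (-1.30 to -1.10). CEBPA did not pass after cyclic loess normalization (-0.79, adjusted p = 0.052), nor with scrambled siRNA array 2 or 3, or UHMK1 siRNA array 1 or 3, left out (-0.89 to -0.83). The count of 5 called genes was 1 without scrambled siRNA array 2, 2 without scrambled siRNA array 3 or UHMK1 siRNA array 3, and 3 without scrambled siRNA array 1 or UHMK1 siRNA array 1. It was 6 without UHMK1 siRNA array 2, and 1, MTTP, in the fit over all probe sets.

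ABCA1, which hands cellular lipid to APOA1, stood at 12.97, 12.96 and 12.84 in the scrambled siRNA group, against 13.92, 13.27 and 13.80 in the UHMK1 siRNA group. The groups did not overlap, but the difference of 0.74 (SE 0.19) had an adjusted p of 0.0795 in limma. It passed without UHMK1 siRNA array 2 (0.94, adjusted p = 0.0195), after quantile or cyclic loess normalization, with a variance trend, and among brighter genes only. APOF, an inhibitor of lipid transfer, stood at -0.59 (adjusted p = 0.0916), and passed where genes with a mean log2 level above 5 were tested (adjusted p = 0.0437). LRP8, a receptor for APOE, stood at -0.54 (adjusted p = 0.0942), and also passed among brighter genes only. The HDL receptor SCARB1, named after its values were seen, stood at -0.18 (adjusted p = 0.607).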

How the data were processed

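Expression in HepG2 cells was read on 6 arrays. The deposited values are log2 expression, which the submitters' processing notes credit to RMA in Transcriptome Analysis Console 4.0. RMA corrects background, normalizes and summarises probes, so total RNA per cell cannot be read. The arrays do not share 1 distribution (maxima of 19.36 to 19.93), so full quantile normalization of the deposited table was not evident. The genome build was not given in the sources used here.

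Of 135750 probe sets, 36176 had 1 gene symbol, 1119 several, and 98455 were not listed. Symbols were updated by Entrez ID to the RefSeq table of GRCh38.p14 (24321 genes matched). Per gene the probe set with the highest mean over 6 arrays was used, giving 33616 genes. Fits used limma 3.58.1 in R 4.3.3 (lmFit, eBayes, two-sided, no covariates), with Benjamini-Hochberg adjustment over all genes, and were tested on simulated data. The number of arrays limits the precision.

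Named were all members, UHMK1, list genes past the threshold or among the 8 smallest p, APOC2, APOC3 and APOC4, called neighbours and defining cell type markers. APOB, CD68, ACTA2 and intestinal markers other than VIL1 and FABP2 were added after their values were seen. Members and lists were chosen with earlier results of these data known. Motifs were chosen after the promoters were read. Alternatives covered normalization, a cap, probe sets, filters, the variance model, a replicate block and each array left out.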

Additional observations from a re-analysis of the deposited data

How the results depend on the processing

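With any 1 array left out, the number of called members was 0 each time, HDL metabolism genes gave 1 to 6 calls, cluster neighbours 1 to 2 and all genes 389 to 899, UHMK1 being called throughout. The HDL metabolism count of 6 came without UHMK1 siRNA array 2. LCAT made the members' count 1 after quantile normalization (0.66), after cyclic loess normalization (0.74), with trend and robust eBayes (0.61), and with only genes above a mean log2 level of 5 or of 8. HDL metabolism calls were 8 of 50 and 11 of 31 genes tested under those filters. They were 8 of 59 with trend and robust eBayes and 1 of 59 in the fit over all probe sets. Neighbour calls were 4 of 13 above a level of 8 and 1 of 20 over all probe sets. Above a level of 8, 7 members were tested. Calls were also more frequent among all genes under the filters, at 1724 of 17983 and 2202 of 8865. With trend and robust eBayes 1685 of 33616 genes were called, and in the fit over all probe sets 296 of 135750 probe sets. The sign turned for APOC1 (0.11) and APOH (0.051) after cyclic loess normalization, and APOC1 ran from -0.087 to 0.125 with 1 array left out. The cause was not tested. The median difference of the members, -0.01, was 0.11 after cyclic loess normalization and -0.07 to 0.125 with 1 array left out, the highest without UHMK1 siRNA array 2. The members' median was also taken on each single array, relative to the scrambled siRNA means. Its SD between arrays of a group was 0.109, which is not the SE of the difference between groups.

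The labels do not say whether replicate numbers pair the arrays. Deviations of same-numbered arrays correlated at 0.051, 0.028 and -0.043 across genes, and those of differently numbered arrays at -0.093 to 0.072. Correlations across all genes cannot exclude a pairing that shows in few genes. With the replicate block 722 genes were called, and 0 members. Levels near the top of the scale limit what APOA2 and APOH can show.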
